A study of Homo sapiens with 3 samples.

Results

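The sites described here are the binding sites of the RNA helicase p68 that touched or flanked a site of SRA (steroid receptor RNA activator), a long non-coding RNA, in NTERA2 cells. They were chosen by measured position, as p68 sites with an SRA site on the same chromosome at an edge-to-edge gap of at most 500 bp, overlap included. Of 14131 p68 sites, 926 met this rule, or 6.55% (95% Wilson interval 6.16 to 6.97%), and they are named SRA-proximal p68 sites below. NTERA2 is a human embryonal carcinoma line that is used as a model of pluripotent stem cells, grown without further treatment, and all data come from this line. SRA was mapped by ChIRP-seq, in which biotinylated oligonucleotides recover an RNA with the chromatin bound to it, and p68 by ChIP-seq with an antibody against the protein. For each assay 1 list of sites in hg19 was available, holding chromosome, start and end without a score, which leaves the depth behind a site unknown and gives no measure of replicate error. Input chromatin was not analysed here. Intervals on counts and shares cover counting error only, and because neighbouring sites are not independent no test between groups of sites was made.

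p68, the product of the DDX5 gene, is a DEAD box helicase that unwinds RNA and acts as a co-regulator of transcription. SRA is known as an RNA co-activator of nuclear receptors and forms complexes with p68. The trithorax complexes with which SRA associates place methyl groups on lysine 4 of histone H3, a mark of active or poised promoters, and the polycomb complex PRC2 methylates lysine 27, a mark of silenced genes.

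The SRA sites next to which these p68 sites lay were recovered with 29 antisense probes of 20 nt, of which the first, a middle and the last in the probe table are shown, 5′ to 3′, because capture by these probes defined the SRA partner of every p68 site described.
SRA_1: ggctgatgtcatcacatacc
SRA_15: tctctgatgcggggactctg
SRA_29: tgaggcagcagtttgtttgg
They had GC contents of 50%, 60% and 50%. Genomic sequence and gene annotation of hg19 were not used here, so the p68 sites are given by coordinate only.

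Most of the SRA-proximal p68 sites overlapped SRA. Of the 926 sites 719 shared 1 bp or more with an SRA site (77.6%, 95% Wilson interval 74.9 to 80.2%), and the other 207 (22.4%) flanked an SRA site. Among the flanking sites 111 had a gap of up to 250 bp and 96 a gap of 250 to 500 bp. Beyond the threshold the p68 sites thinned out, with 61 at gaps of 500 to 750 bp, a mean of 63.5 sites per 250 bp at gaps of 500 to 2000 bp and 49.4 at gaps of 2000 to 5000 bp. The closest flanking site, on chromosome 1 from 27212698 to 27214544, was 1847 bp wide and ended 1 bp before an SRA site of 3646 bp. The next closest had gaps of 3 bp (chr7:4743484-4745591) and 5 bp (chr1:155168895-155169998). At the threshold, the last sites to be included had gaps of 498 bp (chromosome 16, 67592275 to 67593375), 497 bp (chromosome 1, 37850456 to 37851703) and 497 bp (chromosome 1, 53301802 to 53303611). The first sites left out had gaps of 505 bp (chromosome 11, 66745030 to 66746050), 510 bp (chromosome 21, 45125109 to 45127261) and 513 bp (chromosome 1, 175043031 to 175043907). These 6 sites show where the rule divided the list and nothing more.

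The midpoints of p68 sites were denser just outside the edges of SRA sites than inside them. These edges are those left after the authors intersected replicates and subtracted LacZ probe sites. How far these steps set the edges was not tested. The midpoint of the p68 site was outside every SRA site in 695 of the 926 (75.1%, 72.2 to 77.7%), and also in 488 of the 719 that overlapped SRA (67.9%, 64.4 to 71.2%). The first of these shares is partly set by the rule, since the 207 flanking sites have their midpoint outside by definition. The median midpoint was 286.5 bp outside the nearest SRA edge. When the midpoints of all p68 sites were divided by the amount of DNA at each distance, the density was 52.3 per Mb (95% exact Poisson interval 45.3 to 60.2) in the first 250 bp outside SRA and 51.5 per Mb (44.3 to 59.5) in the next 250 bp. It fell to 37.5 per Mb (31.4 to 44.6) between 500 and 750 bp and to 21.1 per Mb (18.6 to 23.7) between 1000 and 2000 bp, next to 18.4 per Mb (17.1 to 19.9) between 2000 and 5000 bp. Inside SRA sites the outermost 250 bp held 23.04 midpoints per Mb (18.6 to 28.3). From 250 to 1500 bp inside, the density was 6.88 per Mb (5.56 to 8.41), below that of the DNA 2000 to 5000 bp away from SRA. It was not even over this stretch, with 4.14 per Mb (2.32 to 6.82) at 500 to 750 bp inside. At 1250 to 1500 bp inside it was 11.5 per Mb, with an interval (6.56 to 18.6) that reaches the one for 2000 to 5000 bp outside. Midpoints more than 1500 bp inside were not binned, so the density there is not given. Of the bins of 250 bp outside the edge, that from 1000 to 1250 bp was the last whose interval (20.5 to 31.7 per Mb) lay above the one for 2000 to 5000 bp.

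**Figure D1:**
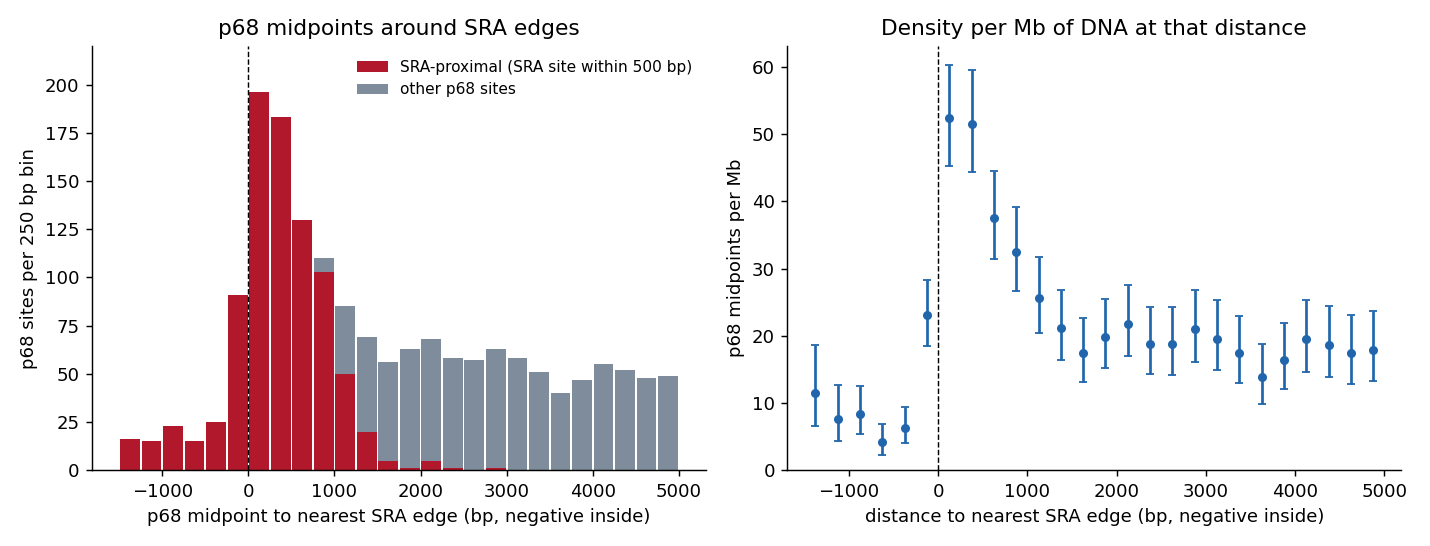
Position of p68 midpoints relative to the nearest SRA edge in bins of 250 bp (negative distances are inside an SRA site). Left, number of p68 sites, with SRA-proximal sites in red and the remaining p68 sites in grey; right, the same bins (all p68 sites) per Mb of DNA at that distance, with exact Poisson 95% intervals. Density is highest in the first 500 bp outside the edge, 52.3 and 51.5 per Mb, and lowest in the bins more than 250 bp inside. Midpoints more than 1500 bp inside are not shown.

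Where the sites overlapped, the overlap was usually shallow. The 926 p68 sites formed 1005 pairs with SRA sites, of which 773 overlapped. In 668 of these (86.4%) the sites were staggered, each reaching past the other at one end, in 104 (13.5%) the whole p68 site lay within the SRA site, and in 1 the SRA site lay within the p68 site. The staggered pairs shared a median of 414.5 bp (quartiles 242.5 and 584.5 bp), which was 30.4% of the p68 site. At least 50% of the p68 site was shared in 126 of the 668 staggered pairs (18.9%, 16.1 to 22%). In steps of 10% of the p68 site, between 79 and 128 pairs fell in each step from 0 to 50%, 49 in the step from 50 to 60%, 44 in that from 60 to 70% and 13 in each of the steps from 70 to 80% and from 80 to 90%. The last step held 112 pairs, of which 104 were wholly inside.

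The length of the overlap rose less than the width of the p68 site. In the 167 staggered pairs with the narrowest p68 sites (530 to 995 bp) the median overlap was 332 bp, or 38.8% of the p68 site. In the 167 with the widest (1676 to 6273 bp) it was 542 bp, or 24.2%. Over all overlapping pairs a median of 16.9% of the SRA site was shared. The p68 sites that lay wholly inside were narrow, with a median of 1019.5 bp, and their SRA sites were wide, with a median of 4245.5 bp against 2540 bp for the SRA sites of staggered pairs. A wide SRA site can hold a p68 site more easily, so these widths are partly set by the grouping. The enclosed p68 sites had a median of 845 bp to the nearest SRA edge, and 28 of the 104 (26.9%, 19.3 to 36.2%) were within 500 bp of it, a distance that the widths of both sites limit.

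The longest overlaps were exceptions to this shallow pattern. On chromosome 12 a p68 site from 31516764 to 31522332 (5569 bp) shared 3858 bp with an SRA site from 31514483 to 31520621, which was 69.3% of the p68 site and 62.8% of the SRA site. On chromosome 1 a p68 site from 204476253 to 204479933 (3681 bp) shared 2992 bp with an SRA site of 4858 bp. On chromosome 12 a p68 site from 8388334 to 8391206 lay with all of its 2873 bp within an SRA site of 4352 bp. The only SRA site enclosed by a p68 site was on chromosome 1 from 45186634 to 45188272 (1639 bp), within a p68 site from 45186266 to 45188640 (2375 bp), and it was picked out after its values were seen.

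**Figure D2:**
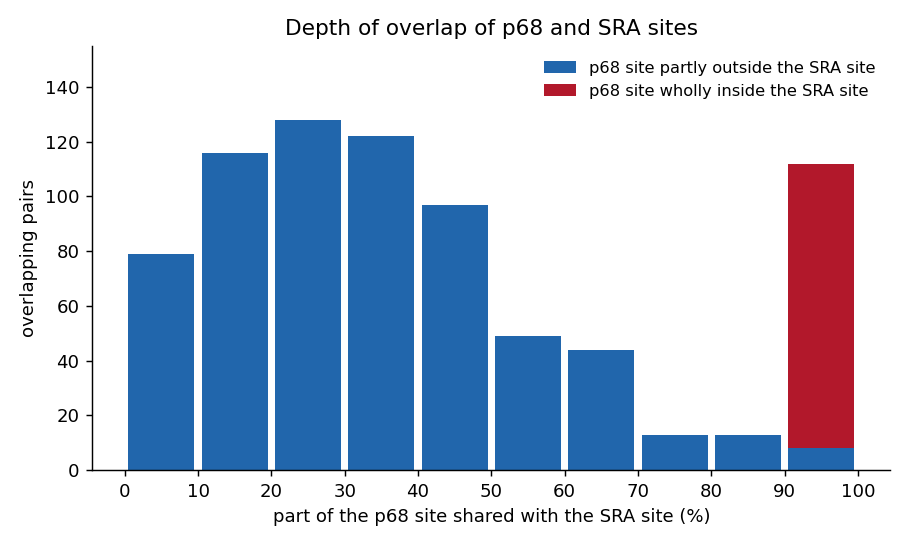
Number of overlapping p68 and SRA pairs (773 in all) by the percent of the p68 site shared with the SRA site, in steps of 10%. Blue bars are pairs in which the p68 site reaches out of the SRA site and red bars are p68 sites wholly inside; most blue pairs share under 50%, and 104 of the 112 pairs in the last step are red.

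An SRA-proximal p68 site usually had 1 SRA partner. This was so for 847 sites (91.5%, 89.5 to 93.1%), while 79 (8.53%, 6.90 to 10.5%) had 2 and none had more. The space between the SRA partners of the 79 sites had a median of 471 bp (range 10 to 3141 bp). The rule limits this space to the width of the p68 site plus the allowed gap on each side, so the space, its filling and the excess of the p68 width over it are descriptions only. Of these p68 sites 54 (68.4%, 57.5 to 77.6%) overlapped both partners and filled the whole space between them, 19 overlapped 1 partner and 6 lay free between both. Their midpoint fell in the space between the partners in 51 of the 79. They were of ordinary width, with a median of 1151 bp against 1195 bp for sites with 1 partner, so that the p68 site exceeded the space by a median of 717 bp. The 3 sites of this kind with the longest summed overlap were chromosome 1 from 155211615 to 155214655, which shared 578 and 2047 bp with its partners, chromosome 1 from 200857909 to 200859825, wholly inside a partner and 385 bp from the next, and chromosome 11 from 44981759 to 44983347, wholly inside a partner and 218 bp from the other.

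The spaces between neighbouring SRA sites were then counted from the SRA side. In spaces of 250 to 500 bp the density of p68 midpoints was 163 per Mb (95% exact Poisson interval 89.2 to 274), from 14 p68 sites in 232 spaces. It was 108 per Mb (61.5 to 175) in spaces of 500 to 1000 bp and 51.5 per Mb (32.6 to 77.2) in spaces of 1 to 2 kb. It went down further to 22.03 per Mb (20.8 to 23.3) in spaces of 10 to 50 kb and 16.2 per Mb in spaces of 50 to 200 kb. Longer spaces hold more DNA far from any SRA edge, so part of this fall repeats the density by distance given above. Spaces of up to 500 bp lie wholly within 250 bp of an SRA edge. Over all SRA edges the density at that distance was 52.3 per Mb (45.3 to 60.2), close to that in spaces of 1 to 2 kb. The shortest spaces, up to 250 bp, held 2 midpoints in 449 spaces. Their interval of 4.89 to 146 per Mb overlapped those of all longer classes. Despite the high density, most short spaces held no p68 midpoint. It was present in 6.03% of spaces of 250 to 500 bp (3.63 to 9.87%) and in 7.88% of those of 500 to 1000 bp (4.91 to 12.4%).

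**Figure D3:**
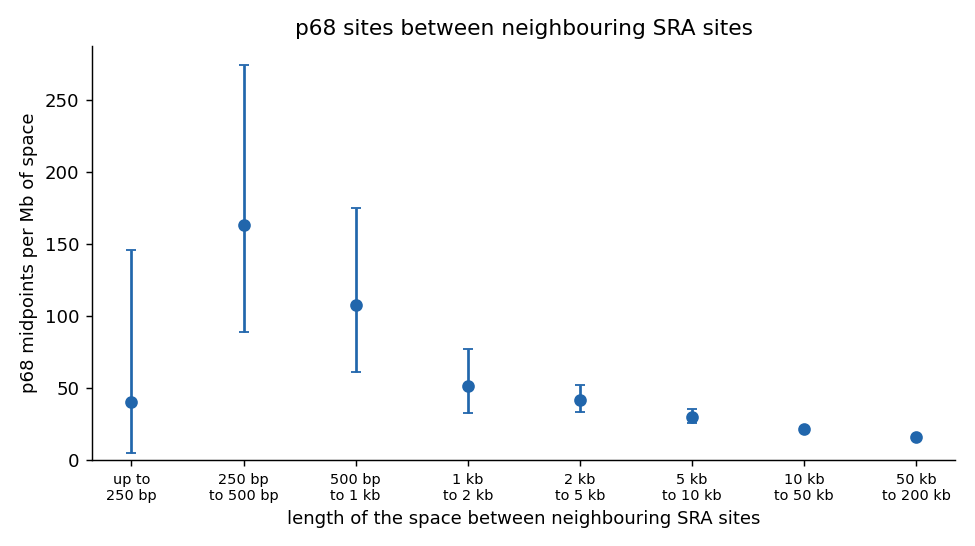
p68 midpoints per Mb in the spaces between neighbouring SRA sites, by the length of the space, with exact Poisson 95% intervals. The density is 163 per Mb in spaces of 250 to 500 bp and falls to 16.2 per Mb in spaces of 50 to 200 kb. Spaces of up to 500 bp lie wholly within 250 bp of an SRA edge, and the shortest class rests on 2 midpoints.

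No preferred side of the SRA site was detectable. With no strand known, side was taken as the lower or the higher coordinate of the SRA midpoint. Of the 847 sites with 1 partner 403 were on the lower side, 47.6% with an interval of 44.2 to 50.9% that includes 50%. Among the flanking sites it was 103 of 201 (51.2%, 44.4 to 58.1%) and among the overlapping ones 300 of 646 (46.4%, 42.6 to 50.3%). SRA sites with several p68 sites tended to have them at opposite ends. Of the 917 SRA partners 830 had 1 SRA-proximal p68 site, 86 had 2 and 1 had 3. Where there were 2, they lay on opposite sides of the SRA midpoint in 72 of 86 (83.7%, 74.5 to 90.0%). An SRA site offers limited room on each side, so that opposite ends are also favoured by geometry, and how far was not tested. SRA sites with p68 on both sides were 2595 bp wide at the median, against 2519 bp for those with 1 p68 site.

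Together these contacts joined p68 and SRA sites into 838 connected groups, of which 696 (83.1%) were a plain pair. In 64 groups 2 p68 sites shared an SRA site and in 57 groups a p68 site joined 2 SRA sites. The largest groups held 5 sites, and there were 4 of them. On chromosome 16 a chain from 70183134 to 70197384 ran p68, SRA, p68, SRA, p68, and its middle p68 site (70187878 to 70190301) shared 21 bp with the SRA site before it and 1044 bp with the one after it. On chromosome 11 a chain from 43962060 to 43976251 had 2 p68 sites between 3 SRA sites, with overlaps of 546, 109, 335 and 573 bp. A chain of the same kind on chromosome 7, from 5607030 to 5615358, had overlaps of 372, 857, 570 and 318 bp. The group on chromosome 12 from 8380745 to 8391258 was of another kind, since 2 of its 3 p68 sites lay wholly within SRA sites. In the other 3 chains every p68 site reached out of the SRA sites it touched.

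Against the whole list the SRA-proximal p68 sites were of ordinary width. Their median width was 1189.5 bp (quartiles 969.25 and 1607.75 bp, range 530 to 6273 bp), and that of the 13205 remaining p68 sites was 1185 bp (943 and 1647 bp, 367 to 12526 bp). Overlapping sites had a median of 1199 bp and flanking sites 1173 bp. A wide site reaches more DNA and so meets the rule more easily, and yet the share did not keep rising with width. With the list cut by width into 10 classes of near equal number, it was 4.17% (3.25 to 5.34%) in the narrowest class (367 to 809 bp), 7.89% (6.59 to 9.42%) at 1076 to 1185 bp and 5.17% (4.13 to 6.45%) in the widest class (2361 to 12526 bp). Of the 726 p68 sites of at least 3000 bp 23 were SRA-proximal (3.17%, 2.12 to 4.71%), and of the 153 of at least 5000 bp 4 were (2.61%, 1.02 to 6.53%).

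The median width of p68 sites did not rise or fall steadily with distance from SRA. It was 1206 bp for the 381 p68 sites that lay 501 bp to 2 kb from SRA, close to that of the SRA-proximal sites. Over 200 kb from SRA it was lower than theirs, at 1081 bp for 5096 p68 sites. On chromosomes without an SRA site it was 1011 bp. It was 1291 bp for the remaining p68 sites with an SRA site within 50 kb and 1300 bp for the remaining sites weighted to the same mix of chromosomes, which gave ratios of 0.921 and 0.915. On chromosome 1 the medians were 1274.5 bp and 1542.5 bp, and the SRA-proximal sites had the lower median in 7 of the 11 chromosomes with at least 20 of them. Within 50 kb of SRA the widest 10% of p68 sites, from 2475 bp, were SRA-proximal in 56 of 589 cases (9.51%, 7.39 to 12.1%) and the remainder in 870 of 5300 (16.4%, 15.4 to 17.4%). The widest SRA-proximal sites met SRA with one end only. They were chr1:38389007-38395279 (6273 bp, of which 5.93% was shared), chr1:46755267-46761229 (5963 bp, 14.9%) and chr12:10337134-10342763 (5630 bp, 12.4%).

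**Figure D4:**
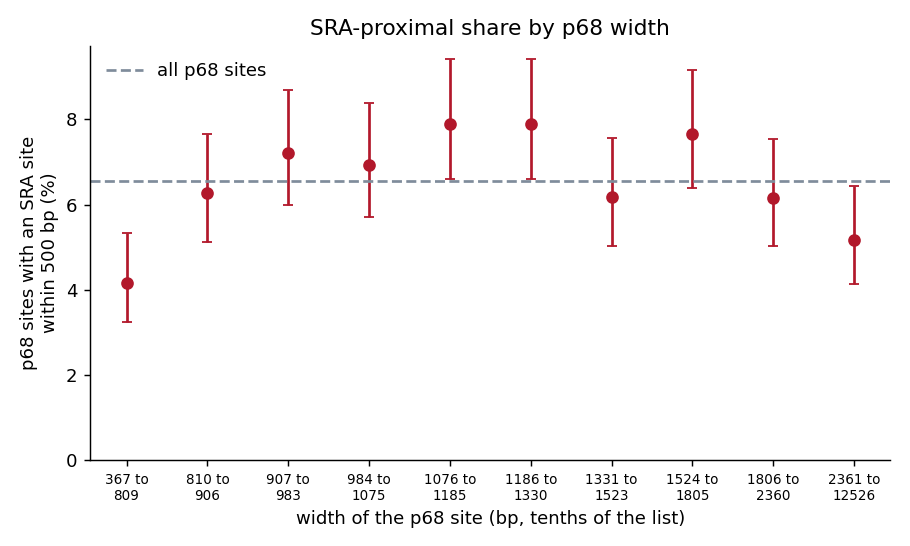
Percent of p68 sites that are SRA-proximal, in 10 width classes of the p68 list from the narrowest to the widest, with 95% Wilson intervals; the dashed line is the share over all p68 sites, 6.55%. The narrowest class is lowest at 4.17% and the widest, at 5.17%, lies under the middle classes.

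SRA-proximal p68 sites were more often close to another p68 site than the rest of the list was. Another p68 site lay within 10 kb for 473 of the 926 (51.1%, 47.9 to 54.3%) and for 4888 of the 13205 remaining sites (37.0%, 36.2 to 37.8%). Within 2 kb the shares were 21.1% and 15.1%, and within 50 kb 85.1% and 68.9%. This closeness was shared by p68 sites in the wider neighbourhood of SRA. p68 sites 501 bp to 2 kb from SRA had a p68 neighbour within 10 kb in 47.5% of cases, those at 2 to 10 kb in 51.6% and those at 10 to 50 kb in 46.7%, while the share was 37.2% at 50 to 200 kb and 26.5% beyond 200 kb. Against all remaining p68 sites within 10 kb of SRA, at 50.7% (48.4 to 53.0%), the SRA-proximal sites differed by 0.362 percentage points, well within both intervals. At the other distances they had the lower share, with 21.1% against 22.04% within 2 kb and 85.1% against 85.2% within 50 kb, again within the intervals. Chromosome 1 had both the most SRA-proximal sites, 392, and the most p68 sites, 2722. Elsewhere the counts went together less closely, with 93 of 806 on chromosome 16, 77 of 1384 on chromosome 7 and 42 of 1320 on chromosome 2. With the remaining sites weighted to the same chromosomes the difference of 14.1 percentage points became 6.45. On chromosome 1 the shares were 57.4% and 54.2%. They were higher for the SRA-proximal sites in 9 of the 11 chromosomes with at least 20 of them, and lower on chromosome 16 (33.3% against 40.3%) and chromosome 2 (28.6% against 34.0%). On chromosome 16 no SRA-proximal site lay from 0 to 40 Mb, where windows of 10 Mb held 166, 103, 89 and 47 p68 sites. The comparison on that chromosome is thus partly between its parts. This limit also holds for chromosome 7, counted among the 9, with 68.8% against 47.1%. Its windows from 60 to 70, 100 to 110 and 150 to 160 Mb held 147, 104 and 111 p68 sites and no SRA-proximal site. Its window from 0 to 10 Mb held 44 SRA-proximal sites among 338. No chromosome was compared part by part, so the 9 of 11 are not free of this limit.

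**Figure D5:**
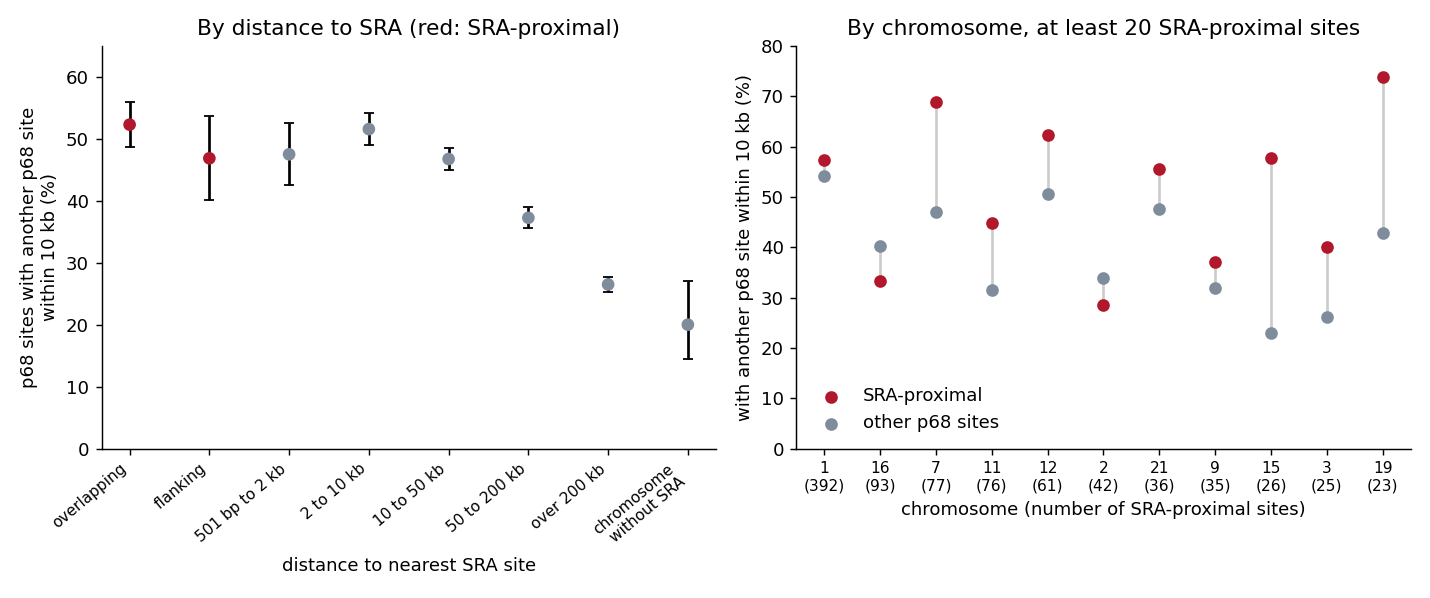
Percent of p68 sites with another p68 site within 10 kb. Left, by distance to the nearest SRA site, with 95% Wilson intervals and SRA-proximal sites in red; the classes from overlapping to 10 to 50 kb all lie between 46.7% and 52.3%. Right, SRA-proximal (red) and remaining (grey) p68 sites by chromosome, without intervals.

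The neighbours of SRA-proximal p68 sites were often SRA-proximal themselves. Of the 473 with a p68 neighbour within 10 kb, the nearest was SRA-proximal in 200 (42.3%, 37.9 to 46.8%), and in 156 of these 200 both were partners of the same SRA site. For the remaining p68 sites within 10 kb of SRA that had such a neighbour, the nearest one was SRA-proximal in 251 of 918 (27.3%, 24.6 to 30.3%). Part of this is fixed by the rule, because an SRA site brings every p68 site near it into the set. Joined at 10 kb, the 926 sites gave 794 groups, of which 688 held 1 site, 86 held 2, 15 held 3, 4 held 4 and 1 held 5. Groups of at least 2 held 238 sites (25.7%).

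The group of 5 lay on chromosome 1 from 33206861 to 33230646, where there were 4 SRA sites and no further p68 site. Its first p68 site, of 1226 bp, bridged a pair of SRA sites with overlaps of 331 and 150 bp, and the next, of 2002 bp, shared 179 bp with the far end of the second SRA site. The p68 sites of 1523 and 1135 bp lay wholly within SRA sites of 3476 and 6027 bp, and the last, of 2951 bp, shared 691 bp with the end of the latter. Groups of 4 lay on chromosome 1 from 27186226 to 27195974 and from 32703275 to 32715604, on chromosome 7 from 5600617 to 5614018 and on chromosome 12 from 8380745 to 8399987. In none of the 5 groups was there a p68 site that was not SRA-proximal.

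The SRA-proximal p68 sites were unevenly spread over the chromosomes. Chromosome 1 held 392 of them (42.3%, 39.2 to 45.5%) and 19.3% of all p68 sites. With chromosomes 16, 7 and 11, which held 93, 77 and 76, it carried 68.9% of the SRA-proximal and 40.1% of all p68 sites. The share of p68 sites that were SRA-proximal was highest on chromosome 1 (14.4%, 13.1 to 15.8%), chromosome 16 (11.5%, 9.51 to 13.9%), chromosome 11 (10.1%, 8.13 to 12.4%) and chromosome 21 (9.73%, 7.11 to 13.2%), whose intervals overlap except for chromosomes 1 and 11. It was low on chromosome 2 (3.18%, 2.36 to 4.27%) and chromosome 3 (3.01%, 2.05 to 4.41%), although these had 621 and 557 SRA sites. On chromosome 17, with 369 SRA sites, it was 3.75%. The interval there (1.99 to 6.97%) includes the share over all p68 sites, 6.55%. Chromosome 10 had none among 275 p68 sites and 21 SRA sites, which allows a share of up to 1.09%, taken as 3 counts of the total (the upper Wilson bound is 1.38%). Chromosome 22, with no SRA site and 139 p68 sites, had none either, and chromosome 18, with 1 SRA site, had none among 110, which allows up to 2.73% by the same rule (Wilson 3.37%). In windows of 10 Mb, 122 of the 310 windows with p68 sites held an SRA-proximal site. The richest were on chromosome 1, from 150 to 160 Mb with 65 of 289 p68 sites, from 20 to 30 Mb with 58 of 450 and from 200 to 210 Mb with 57 of 186. The last of these had the highest share of the 3, 30.6%, and the most SRA sites, 386. On chromosome 16 the windows were unlike each other. Those from 0 to 40 Mb held 166, 103, 89 and 47 p68 sites, 1 SRA site and no SRA-proximal site. From 60 to 70 Mb and from 70 to 80 Mb the shares were 26.5% and 28.4%. The 11.5% for the whole of chromosome 16 therefore averages unlike parts.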

How the data were processed

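SRA ChIRP-seq and p68 ChIP-seq of NTERA2 cells were analysed from the site lists that the authors deposited, 1 per assay, with positions in bp on hg19 and no score. The authors sequenced single ends of 50 bp (the submitters' processing notes name CASAVA 1.8.2, and the aligner is not given in the sources used here). With SAMtools they dropped duplicate reads and any with a mapping quality below 20, and they ran MACS 1.4.2 with a p-value limit of 1e-04 for SRA and 1e-05 for p68. They intersected the lists of 3 biological replicates with ChIPpeakAnno and subtracted LacZ probe sites from SRA with bedtools. A site missing from 1 replicate is therefore absent, and the limits differ between the assays.

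Starts were read as counted from 0 and are printed with the first base as 1. The gap between sites is the number of bases between their edges. p68 sites were classed by the gap to the nearest SRA site. Shares have 95% Wilson intervals and densities exact Poisson intervals. The rule for membership, the comparisons and the sites printed (the 3 most extreme of each kind, with ties) were chosen with earlier results of these data known. Reweighting by chromosome and the comparison within 10 kb of SRA were added after these values were seen. The number of SRA-proximal sites, their gaps, overlap, single partners and side were tested on simulated data with planted sites. The planted SRA sites were far apart and every planted overlap was staggered. Sites with several partners and enclosed sites were therefore not tried. Widths, depth of overlap, midpoint position and p68 neighbours were not tested in this way. Python 3.11.15 was used with matplotlib 3.10.9, numpy 2.4.6, pandas 2.3.3, networkx 3.6.1 and scipy 1.17.1.

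Gene names, distances to gene starts and sequence at the sites were planned for a reference of hg19 and not analysed here, since the gene and promoter tables at hand are of another build.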

Additional observations from a re-analysis of the deposited data

How the results depend on the processing

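With 1 list per assay no replicate could be left out in turn, and no p-value was computed. Of 79 recomputed values 53 stayed within the 95% interval of the reported one, with the remaining p68 sites taken as fixed. The count includes settings that could hardly move a value, such as leaving out the 9 p68 sites on unplaced contigs. The share of p68 sites that were SRA-proximal, 6.55%, was 5.09% for overlap alone, 5.87% for a gap of at most 250 bp, 7.40% for 1000 bp, 9.25% for 2000 bp, 4.68% without chromosome 1 and 4.32% with p68 midpoints at most 500 bp from SRA. The overlapping share, 77.6%, was 86.6%, 68.7% and 55.0% at gaps of 250, 1000 and 2000 bp, where the rule sets it, and 74.3% without chromosome 1. The share with 1 SRA partner, 91.5%, was 87.4% at 2000 bp and 96.0% with SRA sites up to 500 bp apart joined. The median percent of the p68 site covered, 34.4% over all overlapping pairs, was 42.4% for p68 sites no wider than the median of the list. The share with the midpoint outside SRA, 75.1%, was 67.9% for overlap alone, 77.9% and 82.3% at 1000 and 2000 bp, 78.3% without chromosome 1 and 66.7% for narrow p68 sites. The ratio of median widths, 1.00, was 0.921 and 0.938 against p68 sites within 50 kb and 10 kb of SRA, 0.915 with chromosomes weighted and 0.936 with midpoints measured. The difference in the share with another p68 site within 10 kb, 14.1 percentage points, was 2.88 and 0.362 against p68 sites within 50 kb and 10 kb of SRA, 6.45 with chromosomes weighted and 5.996 for neighbours within 2 kb. It was positive in each of these, but against p68 sites within 10 kb of SRA it turned negative for neighbours within 2 kb (21.1% against 22.04%) and within 50 kb (85.1% against 85.2%), all within the intervals. The side of the SRA site did not leave its interval under any alternative. Read depth was not available, so how far the edges of sites depend on it was not tested. Nor was the effect on the edges of intersecting replicates and of subtracting LacZ probe sites from SRA.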

Other observations

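The SRA sites that had a p68 site within 500 bp were themselves more often in close company than the 6982 other SRA sites. Another SRA site lay within 10 kb for 507 of the 917 (55.3%, 95% Wilson interval 52.1 to 58.5%) and for 47.1% (46.0 to 48.3%) of the others. Within 2 kb the shares were 32.2% (29.2 to 35.3%) and 25.9% (24.9 to 27.0%), and within 50 kb 80.9% and 75.4%. Part of this is fixed by the rule, because a p68 site with 2 SRA partners brings both into the set. There were 79 such p68 sites, with a median of 471 bp between their partners. These shares were not weighted by chromosome, and chromosome 1, which held 42.3% of the SRA-proximal p68 sites, also held the most SRA sites. No comparison was made with only those other SRA sites that lay in the wider neighbourhood of p68.

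The share of SRA-proximal p68 sites that overlapped SRA rather than flanking it varied between chromosomes, as values noticed after they were computed. It was 82.1% on chromosome 1 (322 of 392), 85.2% on chromosome 12 (52 of 61) and 84.6% on chromosome 15 (22 of 26), against 61.1% on chromosome 21 (22 of 36) and 56.5% on chromosome 19 (13 of 23). Over all SRA-proximal sites it was 77.6%. The chromosomes given are the extremes of the 11 with at least 20 SRA-proximal sites. Several of the counts are small and no intervals were computed, so the variation may be counting error.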
